A study of Homo sapiens with 2 samples.

Results

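The small Cajal body RNA genes, which carry SCARNA symbols, were compared between 2 arrays of MDA-MB-231 cells, an established triple-negative human breast cancer line. Members were the genes of the platform's probe table whose symbol is SCARNA or SNORA followed by a digit, with no filter on level. This gave 23 SCARNA genes among 14884 named genes, each with 1 transcript cluster (the group of probes that stands for a gene). No cluster carried a SNORA symbol in that table (0 genes), so the H/ACA RNA genes of the SNORA class are not analysed here, and neither is the contrast of the 2 classes. The first group received compound 1, a small molecule that the study directs at the microRNA miR-544, and the second an oligonucleotide antagonist of that microRNA, the miR-544 antagomir. Both were given 24 hours before hypoxia (oxygen below 1%), which lasted 5 days in both groups. Each treatment had 1 array of pooled RNA, and neither an untreated nor a normoxic array was used here.

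No treatment was replicated on a further array, so differences below have neither an error nor a test. Differences are compound 1 minus miR-544 antagomir on the log2 scale, and a positive value means a higher level in compound 1 cells. No source used here gives the log base of the deposited values, and every fold assumes base 2. Levels of different clusters depend on their probes, so no order of abundance is read from them, and the middle level of all clusters, 5.60, serves only as a rough mark of weak and strong signal. In a bulk sample, fewer cells with an RNA and less of it per cell cannot be told apart. The line's mesenchymal markers AXL (12.77 in compound 1 cells and 12.78 in antagomir cells) and VIM (10.49 and 10.61 in the same order) lay far above this middle level. The hormone receptor genes ESR1 (5.21 and 5.31) and PGR (4.77 on both arrays) lay below it. CD68, listed as a leukocyte marker but also known from tumour cells, had 11.59 and 11.60, while the endothelial markers PECAM1 (5.57 and 5.32) and VWF (5.81 and 5.74) were near the middle level. The listed markers CDH1 (epithelial), PTPRC and CD3E (leukocyte) and CDH5 (endothelial) are not analysed here, so CD68 was the only leukocyte marker measured. The part of other cell types in the results was not tested.

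Small Cajal body RNAs are short nuclear RNAs that guide the chemical modification of spliceosomal small nuclear RNAs. Members with C and D boxes direct 2′-O-methylation with the methyltransferase fibrillarin, and members with H and ACA boxes direct pseudouridylation with the enzyme dyskerin. Some carry both domains. A short CAB motif in the H/ACA type is bound by WRAP53, which keeps these RNAs in the Cajal body. Most are cut out of introns of other genes, so their supply depends on the transcription and splicing of a host, on trimming of their ends and on the proteins that cover them.

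As a class the SCARNA genes lay slightly higher in compound 1 cells. Of the 23 genes, 15 were higher, 7 were lower and 1 was identical, whereas 46.4% of all named genes were higher and 51.5% were lower. The median difference was 0.093 over the SCARNA genes and -0.0093 over all named genes. The middle 50% of the SCARNA differences ran from -0.069 to 0.17. The sizes were small, and 20 of the 23 genes lay within 0.3 of 0 on the log2 scale. Past 1.5-fold there were 2, SCARNA18 (higher) and SCARNA9L (lower), against 2.26% of all named genes past that fold in either direction, 1.36% higher and 0.907% lower. Past 2-fold there were 0 SCARNA genes, and 0.296% of all named genes.

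**Figure D1:**
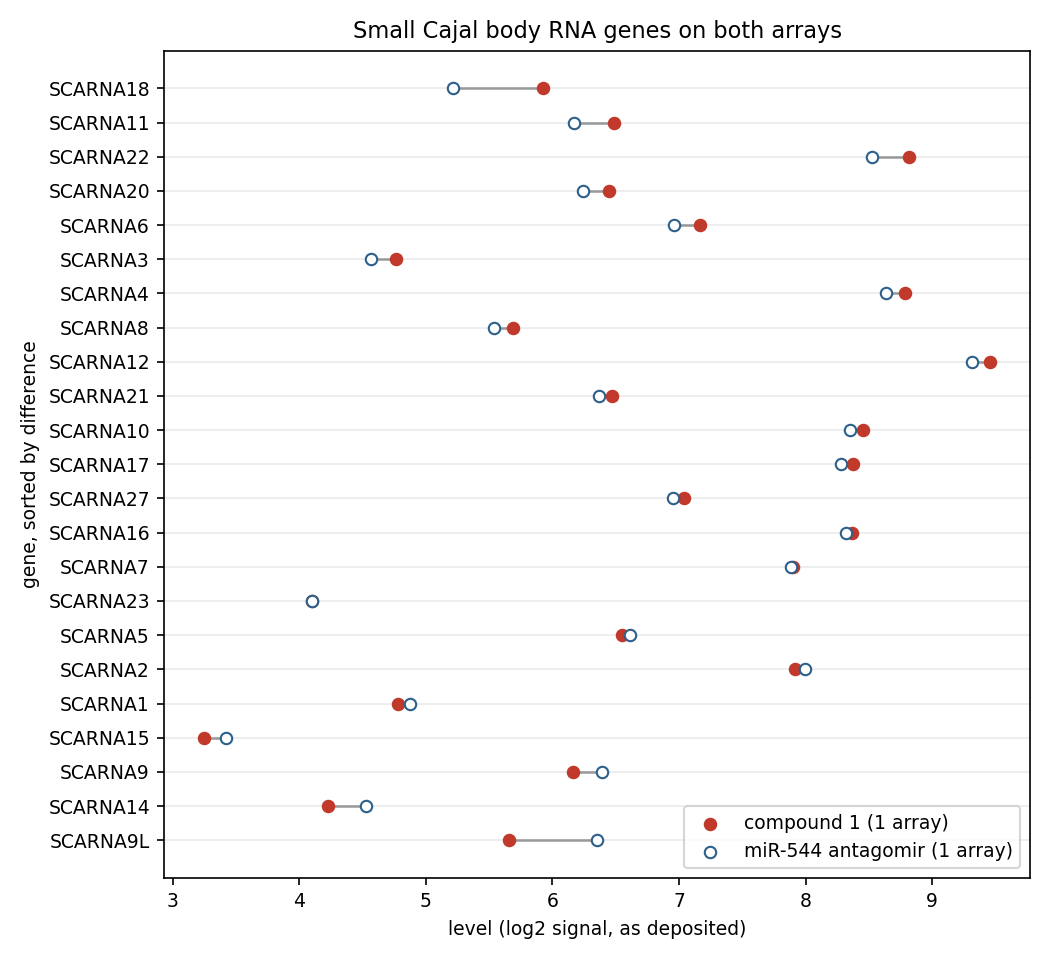
Level of each of the 23 SCARNA genes (log2 signal, horizontal axis) in compound 1 cells (filled points) and in miR-544 antagomir cells (open points), 1 array each, sorted by difference. SCARNA18 at the top and SCARNA9L at the bottom have the longest lines, 0.70 and -0.70.

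The C/D members showed no common direction. SCARNA2, which guides methylation of U2 RNA and is transcribed from a promoter of its own, had 7.92 in compound 1 cells and 7.99 in antagomir cells (difference -0.076, and 0.0015 after quantile normalization). SCARNA7, a guide for U1 RNA, had 7.90 and 7.88 in the same order, and its difference of 0.012 became -0.017 when each array was centred on its median. SCARNA17 had 8.37 in compound 1 cells and 8.28 in antagomir cells. SCARNA9, another guide for U2 methylation, was the lowest of the 4, at 6.17 against 6.39 (difference -0.23). So 2 of the 4 C/D members were higher and 2 lower, with a median of -0.032.

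Of the 4 members that carry both a C/D and an H/ACA domain, 3 were higher in compound 1 cells, with a median of 0.12. SCARNA10, the U85 RNA that guides both kinds of modification on U5 RNA, had 8.45 in compound 1 cells and 8.35 in antagomir cells. SCARNA12, the U89 RNA, had 9.46 and 9.31 in that order (difference 0.15). SCARNA6 and SCARNA5 both lie in the span of the autophagy gene ATG16L1. SCARNA6 was higher, at 7.17 in compound 1 cells and 6.96 in antagomir cells (difference 0.21). SCARNA5 was at 6.55 and 6.61 (difference -0.063), so these neighbours within 1 gene had opposite signs.

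The 12 H/ACA members had a median of 0.13, with 8 higher, 3 lower and 1 identical. SCARNA18, the U109 RNA, had 5.92 in compound 1 cells and 5.22 in antagomir cells, a difference of 0.70 or 1.63-fold. This was the highest difference in the class. Among the 1374 other named genes whose mean level lay within 0.25 of it, 0.437% had a difference as high. That share belongs to the extreme of 23 members and is not a test. SCARNA11, the ACA57 RNA, followed with 6.49 in compound 1 cells and 6.17 in antagomir cells (difference 0.32), where 7.07% of the 1499 genes at its level were as high. SCARNA22, the ACA11 RNA known for its overexpression in multiple myeloma with a translocation at NSD2, had 8.82 and 8.52 in the same order. Its difference of 0.30 was reached by 1.33% of the 901 genes at its level, where differences spread less.

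Smaller positive differences were found for SCARNA20 (6.45 in compound 1 cells and 6.24 in antagomir cells, difference 0.21) and for SCARNA4, a guide for pseudouridines of U2 RNA (8.79 and 8.64, difference 0.15). SCARNA8, which also guides pseudouridylation of U2 RNA, had 5.69 in compound 1 cells and 5.54 in antagomir cells. SCARNA21 (difference 0.10) and SCARNA16 (0.052) differed by less. These 5 genes and the preceding 3 are the 8 higher H/ACA members.

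The 3 lower H/ACA members all lay below the middle level of all clusters. SCARNA14, the U100 RNA, had 4.22 in compound 1 cells and 4.52 in antagomir cells (difference -0.30). SCARNA15, the ACA45 RNA, which is known to be processed in part into a microRNA-like fragment, had 3.25 and 3.42 (difference -0.18). SCARNA1, a U2 guide, had 4.78 in compound 1 cells and 4.87 in antagomir cells (difference -0.097). Differences at least as low were found for 9.24%, 17.6% and 24.8% of genes at the levels of SCARNA14, SCARNA15 and SCARNA1. SCARNA23, the ACA12 RNA, had 4.10 on both arrays, and 1 unnamed cluster shared both of its values to the last digit. Of 14884 named genes 310 were identical on both arrays, so such identity is not read as a measurement of an unaltered level.

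The 3 other members were not placed in a box class. SCARNA9L, named for its likeness to SCARNA9, lies in the span of EIF1AX, a translation initiation factor gene. It had 5.66 in compound 1 cells and 6.35 in antagomir cells, a difference of -0.70 or 1.62-fold, the lowest of the class. Of the 1451 genes at its level 0.414% were as low, a share that again belongs to the extreme of 23 members. SCARNA9 and SCARNA9L were thus both lower in compound 1 cells, but how far probes of one detect RNA of the other was not tested. SCARNA3 had 4.76 in compound 1 cells and 4.57 in antagomir cells (difference 0.20), and SCARNA27 had 7.04 and 6.95 (difference 0.084).

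Differences between the arrays moved with signal level, which bears on how the class is read. Named genes were divided at the quartiles of the mean level of all clusters (4.29, 5.60 and 7.10). In the highest band the median of 6246 named genes was -0.070 and 31.9% were higher, while the 8 SCARNA genes there had a median of 0.098 and 7 were higher. After cyclic loess, which removes a trend of the differences with level, the same 8 had a median of 0.16 with 7 higher, and the named genes of that band had -0.011 with 47.3% higher. In the third band the 9 SCARNA genes had a median of 0.10 with 6 higher, and the 4387 named genes had 0.026 with 54.5% higher. In the second band the 4 SCARNA genes (median 0.050, with 2 higher) lay beside a median of 0.061 and 58.9% higher for 2825 named genes. The 2 members in the lowest band, SCARNA15 and SCARNA23, had a median of -0.088 with 0 higher. There the 1426 named genes had a median of 0.10 with 60.4% higher. After cyclic loess these medians were -0.17 and 0.014. An offset above other genes was therefore found in the upper 2 bands, which hold 17 of the 23 members. In the lowest band the 2 members lay below other genes.

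Read against the median difference of genes within 0.25 of their own level, 15 SCARNA genes lay above and 8 below, with a median offset of 0.11. The robust SD of the differences of those genes, taken from the median absolute deviation, gives a scale for each member. By it 11 members were no further than 1 robust SD from that median, 8 lay further above and 4 further below. The share of all named genes further than this was not counted, so these counts are not read as a trait of the SCARNA genes. The robust SD describes how far genes differ between these 2 arrays and does not replace replicates. Where a gene had exactly 2 clusters with unlike values, the spread between their differences gave a robust SD per cluster of 0.23 below the middle level (194 genes) and of 0.17 above it (395 genes). The differences of 2 such clusters lay at least 1.5-fold apart in 17.0% of the 194 genes and in 4.81% of the 395. The differences of 15 SCARNA genes were within 1 robust SD of this spread between probe groups of 1 gene, and those of 8 were beyond it. These 8 were SCARNA18, SCARNA11, SCARNA22, SCARNA20, SCARNA6, SCARNA9, SCARNA14 and SCARNA9L. A limit of 1 robust SD is narrow, and the share of all named genes beyond it was not counted.

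**Figure D2:**
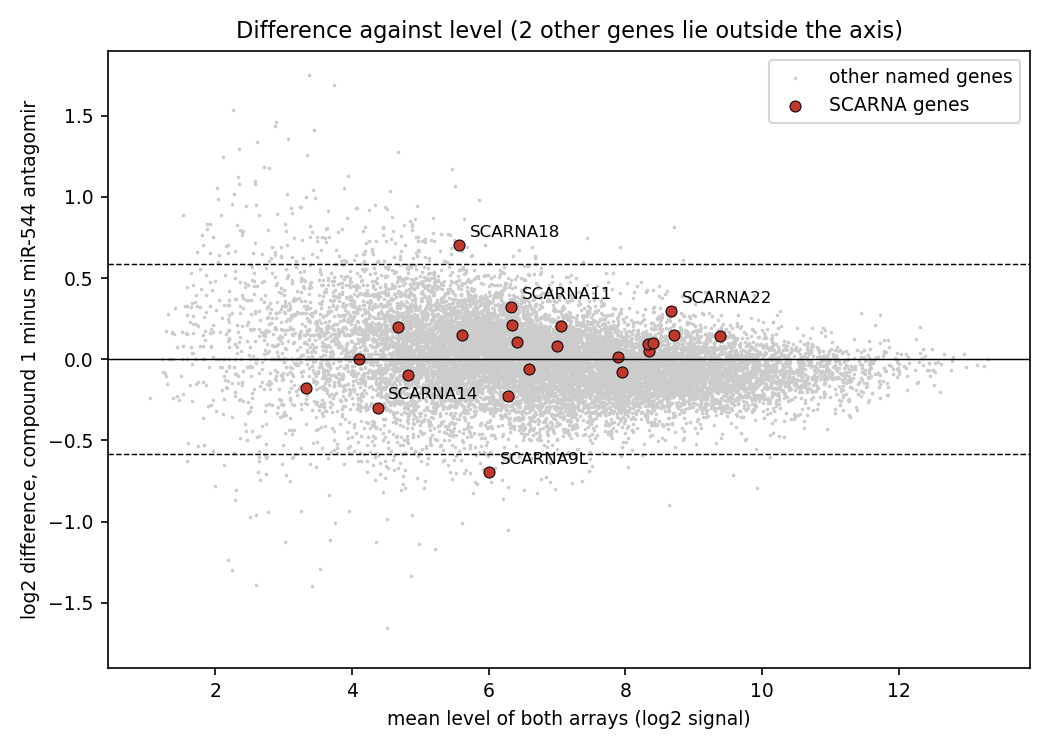
Difference between compound 1 cells and miR-544 antagomir cells (log2, vertical axis) against the mean level of both arrays (log2 signal, horizontal axis) for the 23 SCARNA genes (red) and all other named genes (grey). Dashed lines mark 1.5-fold, and SCARNA18 and SCARNA9L lie beyond them while the other members lie between them.

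Other small non-coding RNA genes were read on the same arrays. Of 1088 genes with MIR symbols, which include some host transcripts, 59.9% were higher in compound 1 cells, with a median of 0.083 and a wider middle 50%, from -0.13 to 0.28. Of 4 vault RNA genes 3 were higher, with a median of 0.66 and differences from -0.22 to 0.98. The 8 SNAR genes were divided, with 4 higher and 4 lower and a median of 0.029. Long non-coding RNA genes (1398) had a median of 0.025, and the 11915 protein-coding genes had -0.023. In the highest level band the 153 MIR genes had a median of 0.11 and 69.3% were higher. As deposited the SCARNA median of 0.093 was close to that of the MIR genes. After quantile normalization the medians were 0.11 for SCARNA and 0.060 for MIR genes, and after cyclic loess 0.099 and 0.040, so their distance depended on the scaling. The difference between the classes was not tested.

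**Figure D3:**
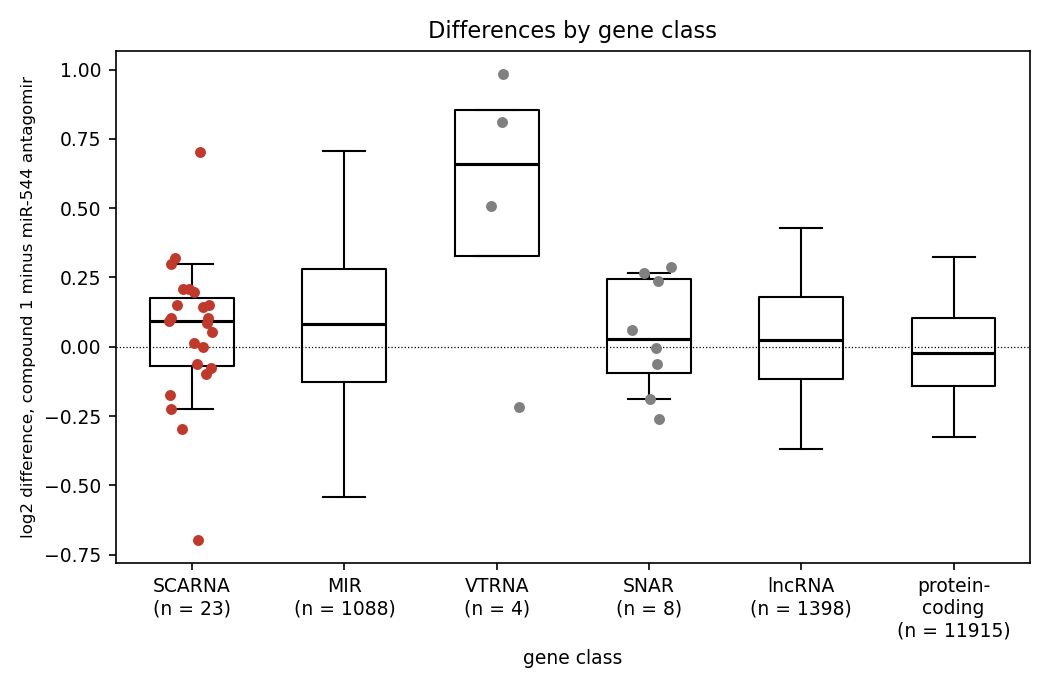
Differences (compound 1 minus miR-544 antagomir, log2) by gene class, with the SCARNA genes at the left. Boxes give the middle 50% with the median and whiskers the 5th to 95th percentile; points show single genes of the small classes. The SCARNA median is 0.093 and the protein-coding median is -0.023.

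Intronic small RNAs share a primary transcript with their host, so each SCARNA gene was set beside the gene whose annotated span holds it. How far a SCARNA cluster also detects unspliced RNA of that gene was not tested. Of the 23 members 22 lie within another gene in RefSeq (GRCh38.p14), SCARNA2 being the exception. The strand of the members is not in the tables used here, so a holding gene may lie on the opposite strand. For 13 members a holding gene was measured (12 genes, since ATG16L1 holds 2). The remaining holding genes are not analysed here.

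In 3 cases the holding gene was lower in compound 1 cells by more than 0.3, and in all 3 the SCARNA gene within it was lower too. TIPIN, a replication fork protein gene that holds SCARNA14, had 6.30 in compound 1 cells and 7.12 in antagomir cells (difference -0.82). CEP295, a centriole protein gene that holds SCARNA9, had 7.52 and 7.97 (difference -0.46). FSD2, which overlaps SCARNA15 together with the non-coding gene SNHG21, had 4.67 in compound 1 cells and 5.09 in antagomir cells (difference -0.42). The 3 SCARNA genes differed by less than the genes that hold them, at -0.30, -0.23 and -0.18. These 3 were picked out after their values had been seen.

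In the other 10 pairs the holding genes lay between -0.13 and 0.14, and 9 of the 10 SCARNA genes were higher. SCARNA18 differed by 0.70, while TMEM167A, the Golgi protein gene that holds it, had 6.23 on both arrays (difference 0.0009). SCARNA11 differed by 0.32, against -0.011 for the chromatin remodeller gene CHD4. SCARNA22 was higher by 0.30, against -0.13 for NSD2, a histone methyltransferase gene. KHDC4, which holds SCARNA4, and CHD3, which holds SCARNA21, were both higher with their SCARNA gene, by 0.067 and 0.14. In all, the signs were the same in 7 of 13 pairs, as also after centring, and in 10 of 13 after quantile normalization and after cyclic loess. The count for the other 10 pairs was 4 as deposited and 7 under both of these scalings, which turned CHD4, PHB2, SNHG20 and KPNA4 positive and TMEM167A negative, all of them close to 0. In the 3 pairs of TIPIN, CEP295 and FSD2 both genes were lower under each scaling. Across the pairs r was 0.659, as a description over 13 pairs from the same 2 arrays, and it was -0.104 over the 10 pairs without TIPIN, CEP295 and FSD2 (0.718 and -0.320 after cyclic loess).

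**Figure D4:**
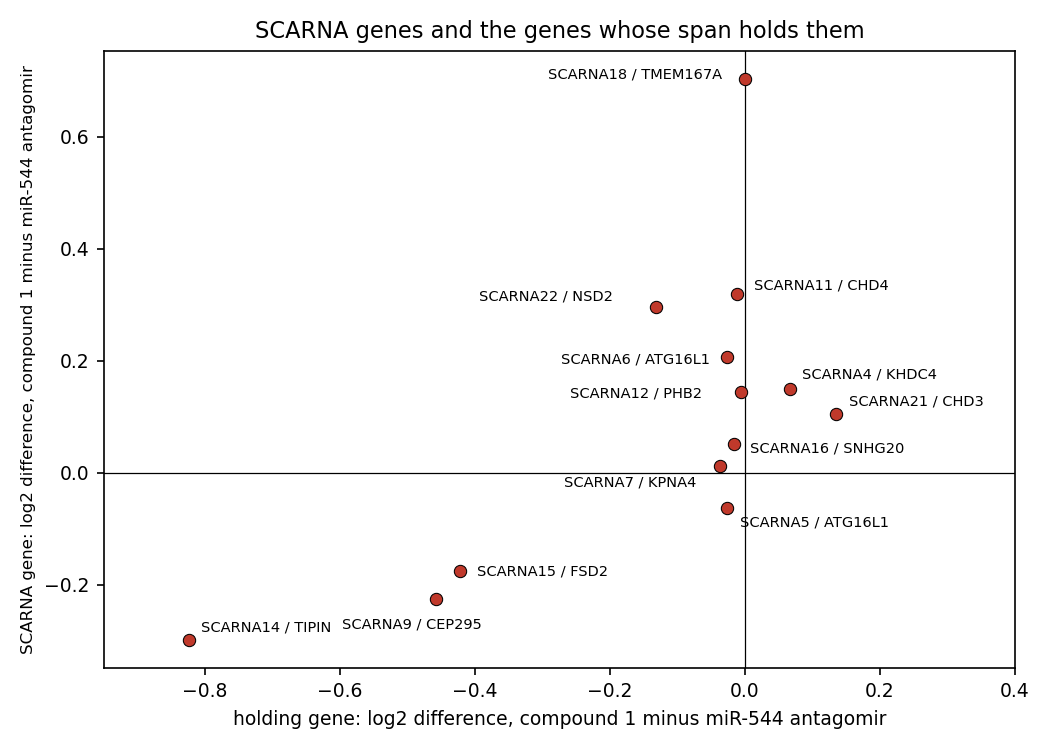
Difference of each SCARNA gene (vertical axis) against that of the gene whose span holds it (horizontal axis), both compound 1 minus miR-544 antagomir on the log2 scale, for 13 pairs. The pairs of TIPIN, CEP295 and FSD2 lie at the lower left, and SCARNA18 lies at 0.70 over a holding gene near 0.

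Genes for the proteins that build, modify or hold these RNAs were mostly lower, as were protein-coding genes of like signal. Of 47 listed protein genes 37 were measured, and 28 were lower in compound 1 cells, 8 higher and 1 identical, with a median of -0.13. Of all protein-coding genes 54.3% were lower. In the highest level band, which holds 31 of the 37, the share was 68.5% of 5862 protein-coding genes (median -0.072), and 24 of the 31 list genes were lower (77.4%, median -0.13). After cyclic loess 21 of the 31 were lower (67.7%), against 53.4% of the protein-coding genes of that band. After quantile normalization 24 were lower and 13 higher (median -0.056), and after cyclic loess 25 and 12 (median -0.063). None of the 37 passed 1.5-fold (0 genes), which 1.13% of protein-coding genes did.

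Of the H/ACA core proteins 3 of 4 were measured. NHP2, an RNA-binding subunit of the H/ACA particle, had 9.04 in compound 1 cells and 9.31 in antagomir cells (difference -0.27). NOP10 was at -0.037 (0.036 after both quantile normalization and cyclic loess), and GAR1 was at 7.28 on both arrays. Among the 5 H/ACA assembly genes 4 were lower, among them the ATPase gene RUVBL2 (10.25 in compound 1 cells and 10.49 in antagomir cells, difference -0.23) and NAF1, which loads the core proteins on new H/ACA RNAs (-0.16). Of the C/D core genes FBL, which encodes fibrillarin, had 11.51 and 11.72 (difference -0.21), and NOP58 was at -0.25, while the RNA-binding subunit gene SNU13 was at 0.11. The 3 measured C/D assembly genes NUFIP1, PIH1D1 and RPAP3 were lower by small amounts (-0.12, -0.042 and -0.031), and PIH1D1 and RPAP3 turned positive after quantile normalization and cyclic loess.

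Genes of the Cajal body itself were lower in 10 of 12 measured cases (9 after quantile normalization, 10 after cyclic loess and 11 after centring), with a median of -0.17. In the highest level band 8 of 9 were lower, beside the 68.5% of protein-coding genes there. COIL, which encodes coilin, the scaffold protein that marks the Cajal body, had 6.96 in compound 1 cells and 7.34 in antagomir cells, a difference of -0.38 or 1.30-fold. ICE2, a subunit of the little elongation complex that acts in small nuclear RNA transcription, had 8.52 and 8.87 (difference -0.35). Of the SMN complex, which assembles spliceosomal particles, GEMIN8 (5.31 in compound 1 cells and 5.66 in antagomir cells), GEMIN2 (5.41 and 5.75) and the helicase gene DDX20 (8.27 and 8.53) were lower, whereas GEMIN6 and GEMIN7 were at 0.055 and 0.017. TGS1, which adds the trimethyl cap to small nuclear RNAs, was at -0.18.

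Among genes of RNA end processing TENT4B stood on the other side. It encodes a poly(A) polymerase that adds short tails to RNA 3′ ends and marks them for trimming or decay, and it had 8.72 in compound 1 cells and 8.34 in antagomir cells (difference 0.38, 1.30-fold). PARN, the exonuclease gene known to remove such tails from H/ACA RNAs, was lower at 8.87 against 9.04 (difference -0.18). The nuclear exosome gene EXOSC10 and the debranching enzyme gene DBR1 were at -0.075 and -0.055. The 7 Sm core genes, whose proteins form the ring on the RNAs that SCARNA members modify, were divided, with 3 higher and 4 lower.

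Telomerase RNA, encoded by TERC, shares the H/ACA domain and the CAB motif with small Cajal body RNAs. It was higher, at 9.96 in compound 1 cells and 9.71 in antagomir cells (difference 0.25, and 0.33 after quantile normalization). The reverse transcriptase gene TERT was at 7.58 and 7.46 (difference 0.12). Directions of both genes held under each of the 3 scalings.

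**Figure D5:**
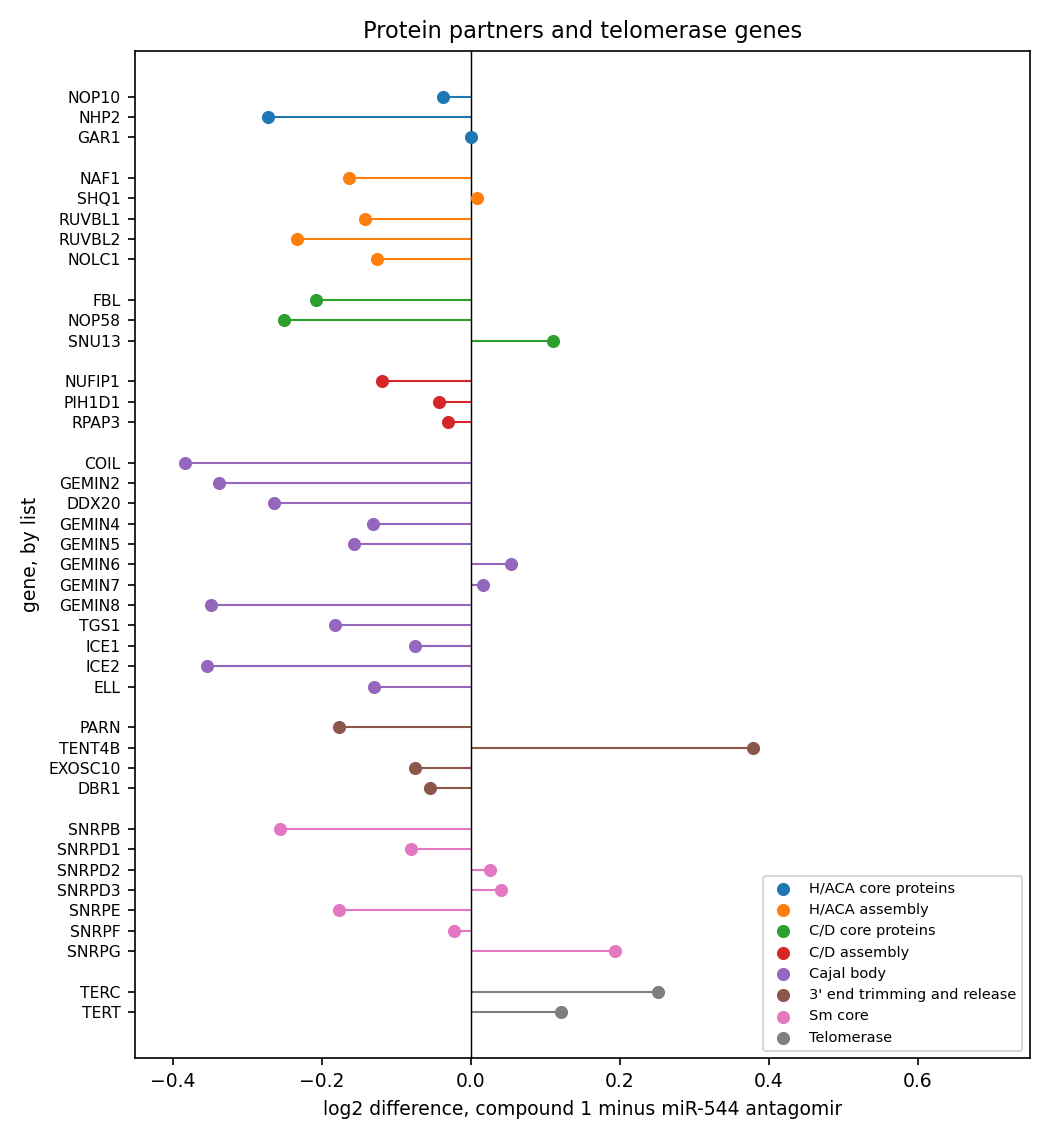
Difference (compound 1 minus miR-544 antagomir, log2, horizontal axis) of each measured gene for proteins of small Cajal body RNAs and of telomerase, grouped by list, 1 array per treatment. COIL has the lowest value at -0.38 and TENT4B the highest at 0.38.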

How the data were processed

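RNA of 2 samples was hybridised, 1 array per treatment; the labels' protocols give biotin-labelled cRNA from 5 µg of total RNA. The design text speaks of 3 samples that were pooled. The deposited log2 values hold 1 number per cluster and array; no source used here gives their background correction, normalization or log base, and log2 was inferred from their range. The probe table pairs 16098 of the 53617 clusters with 1 symbol each and 0 with more, and 37519 have no name here. RefSeq (GRCh38.p14) held the identifiers of all 14884 genes and was used for names, gene types and neighbours only. A gene was represented by its cluster with the highest mean. Members and lists were chosen with earlier results of these data known. Every SCARNA gene, list gene and measured holding gene could be named. Where symbols of SNORD, RNU or RNY genes were looked up, 0 were found and those classes are not analysed here; likewise 10 listed protein genes. Alternatives were 3 scalings, 2 level filters, 2 cluster choices, omission of identical values and 2 other folds. The functions were tested on simulated data. Tools were Python 3.11.15, numpy 2.4.6, pandas 2.3.3, matplotlib 3.10.9, R 4.3.3 and limma 3.58.1. The number of arrays limits the precision.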

Additional observations from a re-analysis of the deposited data

How the results depend on the processing

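No paired analysis was possible because there is a single array for either treatment. The SCARNA median stayed positive in all 10 alternatives, between 0.064 (each array centred) and 0.11 (quantile normalization), with 0.10 for the 18 members that entered at the 50th percentile of level. The median of all named genes moved with the scaling, from -0.039 (centred) to 0.0081 (quantile normalization). Members past 1.5-fold numbered 2 in each scaling; they numbered 0 where the 75th percentile of level was required and 9 members remained, and 0 at 2-fold. Cluster choice could not move a member, since each has 1 cluster, so the 2 cluster choices tell nothing about the SCARNA median. Leaving out SCARNA9 and SCARNA9L (median 0.10), or SCARNA18 and SCARNA9L (0.093), was added after seeing the data. These 2 omissions are among the 10 alternatives for the median, whereas the 2 other folds bear only on the count past a fold. SCARNA18 and SCARNA9L are the highest and the lowest member, so leaving out both cannot move the median. Signs turned for SCARNA7 (centred) and SCARNA2 (quantile normalization), and for 3 to 4 of the 37 protein genes per scaling. Among 12 holding genes CHD4, PHB2, SNHG20 and KPNA4 turned positive after quantile normalization and cyclic loess and TMEM167A negative under each scaling; pairs of equal sign numbered 10 of 13 after the first 2 scalings and 7 after centring. The SNORA median and its contrast with SCARNA genes could not be computed. All 222 scaled values of 74 named genes lay no further from the deposited one than 1 robust SD of genes of like level. This limit is wide beside the shifts that scaling makes, and the signs named above turned within it.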

Other observations

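The RNA components of both ribonuclease particles lay on opposite sides. RMRP, the RNA of the mitochondrial RNA processing ribonuclease, had 11.42 in compound 1 cells and 11.69 in antagomir cells (difference -0.26). RPPH1, the RNA of ribonuclease P, which cuts transfer RNA precursors, had 6.67 and 6.49 in that order (difference 0.18). Among the SNAR genes, which encode short non-coding RNAs transcribed by RNA polymerase III, SNAR-B1 (0.29), SNAR-G1 (0.27) and SNAR-F (0.24) were higher in compound 1 cells, and SNAR-H (-0.26) and SNAR-I (-0.19) were lower. SNAR-B1 and SNAR-C1 have 3 and 5 clusters and near-identical copies, so their values may mix loci. No difference here has a replicate check.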
